A study of Mus musculus with 2 samples.

Results

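Aerocyte capillary endothelial cells were the 164 cells of 11306 in a single-cell RNA-seq library of mouse lung that met a marker rule. The rule kept cells with at most 10% of their UMIs (unique molecular identifiers, 1 per captured transcript) from mitochondrial genes and with values above 0 for at least 3 of the 6 endothelial genes Pecam1, Cdh5, Cldn5, Tie1, Egfl7 and Ramp2. Of these it took cells with at least 2 of the 4 aerocyte genes Car4, Ednrb, Apln and Fibin above 0, with Vwf below 2 and with Ptprc at 0. They were set against the 576 other endothelial cells, which passed the same gates but had fewer than 2 of the 4 aerocyte genes. Of those, 461 had at least 2 of Gpihbp1, Aplnr, Kit and Lpl above 0 and are called general capillary-marked. A further 103 endothelial cells had Vwf at 2 or more, Ptprc at 0 and fewer than 2 aerocyte genes, and are called Vwf-marked. All of these cells came from 1 library of sorted cells of the peripheral lung of wild-type mice at postnatal day 3. The study's only other sample was a bulk library of PDGFRA+ cells sorted from the peripheral lung of Pdgfra-H2BGFP mice, in which the Pdgfra locus drives a nuclear green fluorescent protein, also at postnatal day 3. Age was the same in both libraries, and both were described as control lungs. The labels do not say whether animals were pooled or how the single cells were gated in the sort.

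The alveolus is supplied by a single dense sheet of capillaries built from a pair of intermingled endothelial cell types. Aerocytes are large, branched cells that face the alveolar type 1 epithelium across a thin basement membrane and are specialised for gas exchange and leukocyte passage, while general capillary cells serve as progenitors and regulate vasomotor tone. Car4 encodes a carbonic anhydrase anchored to the outer cell membrane that interconverts carbon dioxide and bicarbonate. Ednrb encodes a receptor for endothelins, Apln a secreted peptide ligand whose receptor Aplnr marks general capillary cells, and Fibin a small secreted protein first described in zebrafish fin bud formation. Aerocytes form in the perinatal lung in response to VEGFA from type 1 cells.

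The promoter windows of the 3 aerocyte genes whose levels were highest in the 164 cells relative to the others are shown because these genes select the cells. The windows, from RefSeq on GRCm38.p6, run from 250 bases before to 50 bases after the annotated start and are written on the gene's own strand. They lie at chr11:84957504-84957803 on the plus strand for Car4, at chr14:103843652-103843951 on the minus strand for Ednrb and at chrX:48034804-48035103 on the minus strand for Apln. Capitals mark every match to a short ETS motif (CCGGAAG or its reverse CTTCCGG) or a TATA motif (TATAAA or its reverse TTTATA).
Car4: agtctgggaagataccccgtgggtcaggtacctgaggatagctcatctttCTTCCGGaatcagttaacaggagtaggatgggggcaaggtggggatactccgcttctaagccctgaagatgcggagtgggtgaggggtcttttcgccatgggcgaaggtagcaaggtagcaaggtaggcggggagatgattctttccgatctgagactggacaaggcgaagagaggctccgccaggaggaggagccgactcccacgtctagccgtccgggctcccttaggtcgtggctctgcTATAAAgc
Ednrb: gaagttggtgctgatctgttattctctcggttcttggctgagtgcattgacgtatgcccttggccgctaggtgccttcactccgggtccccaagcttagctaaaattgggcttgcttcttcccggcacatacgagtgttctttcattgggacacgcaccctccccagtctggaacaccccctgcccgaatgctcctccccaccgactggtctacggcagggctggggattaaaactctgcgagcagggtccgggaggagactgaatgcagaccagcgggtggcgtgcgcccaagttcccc
Apln: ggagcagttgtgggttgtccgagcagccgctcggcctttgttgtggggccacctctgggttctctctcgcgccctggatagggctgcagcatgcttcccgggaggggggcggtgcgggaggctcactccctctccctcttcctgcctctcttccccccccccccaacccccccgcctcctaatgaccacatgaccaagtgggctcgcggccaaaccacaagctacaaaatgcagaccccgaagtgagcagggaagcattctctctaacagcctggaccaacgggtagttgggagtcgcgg
Car4 held 1 ETS match, in reverse orientation, and 1 TATA match, while Ednrb and Apln held neither. The TATA letters of Car4 began at base 293 of the window, after the annotated start and not before it. ETS factors include several regulators of endothelial genes, and 8.86% of all 32851 windows held the same ETS letters, against 13.6% for the TATA letters. A T-box motif (GGTGTGA or its reverse TCACACC, the kind of site bound by Tbx2) was in 0 of the 4 gate genes and in 3.98% of all windows. A SOX motif (AACAAT or its reverse ATTGTT) was in 0 of the 4 and in 10.7% of all windows. Of the 15 genes with the highest ratios described below, 11 matched a window: the ETS letters were in Tex14, the SOX letters in Rtn1 and the T-box letters in 0 of the 11. These are descriptions of letters in short windows, not of binding.

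The whole library held 17758 genes, 62575796 UMIs, and between 709 and 3760 detected genes per cell (median 2012). Cell totals spanned only 1.79-fold, and the deposited values behaved as UMIs corrected for depth and not as raw counts. Levels below are therefore the summed values of a class of cells scaled to 1000000 (CPM), without counting intervals, and a ratio between classes is the log2 ratio of CPM plus 1. A gene is called higher or lower where that ratio was at least 2-fold in size, among genes with at least 50 UMIs over both classes. With 1 library and no replicates, nothing was tested between classes of cells. Because the members were chosen from values in these same cells, every difference from other endothelial cells is a description. Shares of cells have exact Clopper-Pearson 95% intervals, which cover counting error only. The 164 aerocytes had a median of 2150 detected genes (1341 to 3702), against 2256.5 (1204 to 3644) in other endothelial cells. Mitochondrial UMIs made up a median of 4.62% in aerocytes and 4.57% in other endothelial cells. Predicted doublets were 7 of 164 aerocytes (4.27%) and 18 of 576 other endothelial cells (3.13%).

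Aerocytes were 1.45% (1.24 to 1.69) of all deposited cells and 22.2% (19.2 to 25.3) of the 740 aerocytes and other endothelial cells together. Sorting can set both shares. Of the 4 gate genes, Car4 had a value above 0 in 153 aerocytes (93.3%, 88.3 to 96.6), against 38 other endothelial cells (6.6%, 4.71 to 8.94). Its level was 1339 CPM in aerocytes and 18.7 CPM in other endothelial cells. Ednrb was above 0 in 142 aerocytes (86.6%) and 26 other endothelial cells (4.51%), at 661 CPM in aerocytes and 10.6 CPM in other endothelial cells. Apln was above 0 in 130 aerocytes (79.3%) and 57 other endothelial cells (9.90%), at 375 CPM in aerocytes and 34.2 CPM in other endothelial cells. These shares follow from the rule and carry no further weight.

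Fibin did not behave like the other 3 gate genes. It was above 0 in only 20 aerocytes (12.2%, 7.61 to 18.2), against 31 other endothelial cells (5.38%, 3.69 to 7.55), at 36.0 CPM in aerocytes and 16.8 CPM in other endothelial cells. Its level in the 1660 cells with neither Ptprc nor any endothelial gene was 167 CPM, above that in aerocytes, and it was at 19.1 CPM in the 121 aerocytes that a clustering put together. Most aerocytes therefore qualified through the other 3 genes: 93 of the 164 had exactly Car4, Ednrb and Apln. Car4 and Ednrb were detected together in 133 aerocytes, Car4 and Apln in 120, and Ednrb and Apln in 112. The number of gate genes detected was 2 in 58 cells, 3 in 95 and 4 in 11, and 106 of the 164 cells had all 6 endothelial genes.

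The gate genes also differed in where else they were found. In the 4438 cells with Ptprc above 0 and no endothelial gene, Car4 was above 0 in 18.4% of cells (17.2 to 19.5) and Ednrb in 1.83% (1.45 to 2.26). In the same cells Apln was above 0 in 0.293% (0.156 to 0.50) and Fibin in 3.40% (2.89 to 3.98). Those cells had a median of 1717 detected genes. Whether the Car4 values in these cells were expression or free RNA was not tested, and no expression is read from the 6.6% of other endothelial cells with Car4. Ednrb was the 1 gate gene with a sizeable level in another endothelial class, at 224 CPM in Vwf-marked cells, of which 40.8% (31.2 to 50.9) had a value above 0. Car4 was at 6.74 CPM in Vwf-marked cells and Apln at 16.9 CPM.

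The endothelial gate genes were present in both classes. Cldn5, a tight junction claudin, was at 5714 CPM in aerocytes and 2210 CPM in other endothelial cells, a log2 ratio of 1.37. Egfl7, a secreted endothelial protein, was at 3391 CPM in aerocytes and 2038 CPM in other endothelial cells. Ramp2, a partner of the adrenomedullin receptor, was at 2619 CPM in aerocytes and 1540 CPM in other endothelial cells. Cdh5 (VE-cadherin), Pecam1 and the receptor kinase Tie1 lay closer together, with log2 ratios of 0.53, 0.17 and −0.29. Exons of Egfl7 and Ramp2 overlap other genes on the same strand in the annotation (Gm20532 and Mir126a for Egfl7, Vps25 for Ramp2), so part of their UMIs may belong to those.

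**Figure D1:**
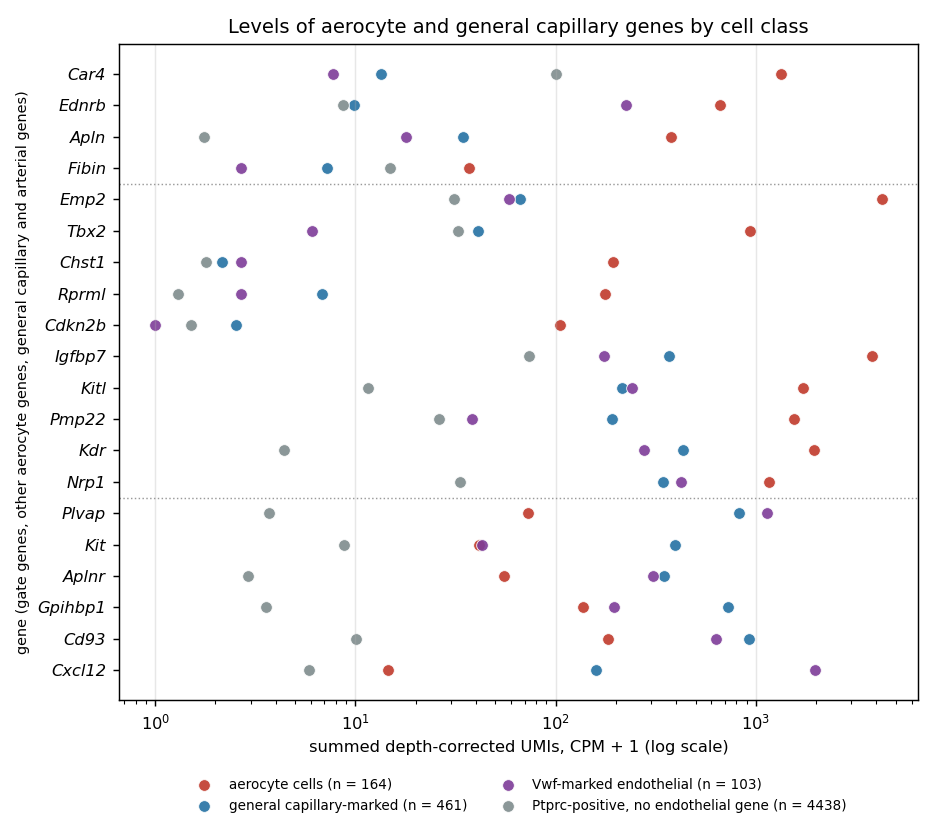
Levels of 20 genes (rows) in 4 classes of cells, as summed depth-corrected UMIs in CPM plus 1 on a log axis. Each dot is 1 class of the single library, so there are no error bars. Red aerocyte dots lie far to the right for Car4 (1339 CPM) and Emp2 (4272 CPM) and to the left of the general capillary-marked and Vwf-marked dots for Plvap (71.9 CPM in aerocytes).

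The label was checked by clustering the 853 endothelial cells with Ptprc at 0 on 1500 variable genes, without the 4 aerocyte genes. Of 15 clusters, 1 of 123 cells held 121 aerocytes, 73.8% of all members, and 98.4% of that cluster met the rule. Its leading genes were Chst1, Car4, Emp2, Rprml, Cdkn2b, Krt80, Tex14, Chst2, Tbx2 and Cyp4b1, and it held 0 predicted doublets. Of its 121 aerocytes, 5 had at least 2 of Gpihbp1, Aplnr, Kit and Lpl above 0. The other 43 aerocytes were spread over other clusters. Of these, 29 fell in 4 clusters in which 11.1% to 40% of cells were predicted doublets, against 0% in each of the other clusters. These 4 clusters were led by fibroblast genes such as Dcn and Col1a1 (10 members), smooth muscle genes such as Tagln and Acta2 (8), mast cell and B cell genes such as Mcpt4 and Cd79a (9) and alveolar type 2 genes such as Sftpc (2). The remaining 14 members lay in other endothelial clusters, and 10 of the 14 were cycling by the measure used below. Of the 14, 5 lay in a cluster of 46 cells whose leading genes began with the alveolar type 1 marker Ager and the S phase gene Rrm2. Another 1 lay in a cluster of 64 cells, of which 53 were Vwf-marked. For some results the level in the 121 cells of the aerocyte cluster is given as well. With that cluster in place of the rule, set against the remaining clusters, several genes that were lower in aerocytes had ratios further below 0, among them Nrp2 (−5.51, and −2.16 by the rule), Cdk1 (−5.66 and −2.07), Gja1 (−5.01 and −2.32) and Itga6 (−4.98 and −2.75). Apart from mitochondrial and ribosomal genes, only the 4 aerocyte genes were kept out of the clustering. Levels of other genes in the cluster are therefore not independent of how it was formed.

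Genes reported for aerocytes that the rule did not use were much higher in the 164 cells. Of 16 such genes 15 had enough UMIs, and of these 13 were higher than in other endothelial cells, 0 were lower and 2 lay between, with a median log2 ratio of 2.96. Over all 8225 genes compared, 5.0% were higher and 7.04% were lower, with a median of −0.06. A list whose counts lie near these shares is not set apart from genes in general. Emp2, a tetraspan membrane protein, was at 4272 CPM in aerocytes and 94.3 CPM in other endothelial cells, a log2 ratio of 5.49. The interquartile range was 14.75 to 31 UMIs per cell in aerocytes (median 22, highest 60), against 0 to 0 in other endothelial cells (highest 32). The interquartile ranges did not overlap, but the whole ranges did: Emp2 was above 0 in 90.9% (85.4 to 94.8) of aerocytes and 19.4% (16.3 to 22.9) of other endothelial cells.

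Among the 21 endothelial transcription factors compared, Tbx2 had the highest ratio. Outside that list, the transcription factor Prdm1 was at 230 CPM in aerocytes and 28.3 CPM in other endothelial cells (2.98). Tbx2 was at 936 CPM in aerocytes and 60.7 CPM in other endothelial cells (log2 ratio 3.92), and was above 0 in 94.5% (89.8 to 97.5) of aerocytes and 17.9% (14.8 to 21.3) of other endothelial cells. Its level in Vwf-marked cells was 5.05 CPM. Its relative Tbx3 was at 474 CPM in aerocytes and 183 CPM in other endothelial cells, a smaller log2 ratio of 1.37. Cdkn2b, the cell cycle inhibitor p15, was at 104 CPM in aerocytes and 1.87 CPM in other endothelial cells, where only 6 UMIs of it were found, and at 0 in Vwf-marked cells.

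Several secreted and surface proteins of the list were higher as well. Igfbp7, a secreted binding protein of the insulin-like growth factor family, was at 3807 CPM in aerocytes and 449 CPM in other endothelial cells (log2 ratio 3.08). Kitl, the ligand of the receptor Kit, was at 1724 CPM in aerocytes and 213 CPM in other endothelial cells (3.01), and was above 0 in 97.6% (93.9 to 99.3) of aerocytes. Kit itself was lower in aerocytes, at 40.5 CPM against 327 CPM in other endothelial cells (−2.98). Kitl was thus higher in aerocytes and its receptor gene Kit in other endothelial cells. Pmp22, a relative of Emp2, was at 1542 CPM in aerocytes and 197 CPM in other endothelial cells (2.96), and the laminin-binding integrin chain Itga3 at 230.3 CPM in aerocytes and 42.3 CPM in other endothelial cells (2.42). Prx, a PDZ protein first known from Schwann cells, was at 678 CPM in aerocytes and 150.3 CPM in other endothelial cells (2.16).

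Chst1, a sulfotransferase acting on the keratan sulfate and related sugars of glycoproteins, had the highest ratio of all ranked genes, with a log2 ratio of 5.56. It was at 193 CPM in aerocytes and 3.11 CPM in other endothelial cells, and above 0 in 51.8% (43.9 to 59.7) of aerocytes and 1.74% (0.836 to 3.17) of other endothelial cells. Rprml, a relative of the p53 target Reprimo, was at 176 CPM in aerocytes and 4.67 CPM in other endothelial cells (4.97). Hpgd, which inactivates prostaglandins, and the tetraspanin Cd9 did not separate the classes, with log2 ratios of 0.11 and −0.49. Foxp2 had 19 UMIs over both classes and was not compared.

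**Figure D2:**
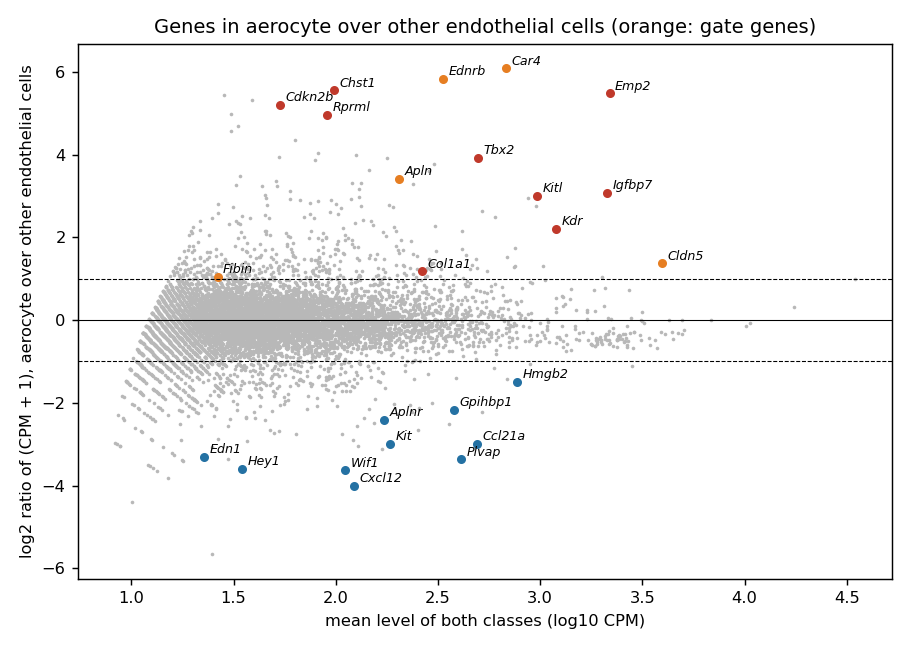
Each grey dot is a gene, placed by its mean level in aerocyte and other endothelial cells (log10 CPM) and by its log2 ratio of CPM plus 1, aerocyte over other endothelial cells. Dashed lines mark 2-fold; orange dots are genes used by the rule. Red labelled genes such as Emp2 (5.49) and Chst1 (5.56) lie near Car4 (6.09), and Cxcl12 (−4.00) and Wif1 (−3.63) are among the lowest blue ones.

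Among the 15 highest ratios over the 1990 genes that reached 100 CPM in either class, 10 were not in that list. They were Krt80, a keratin, at 121 CPM in aerocytes and 4.98 CPM in other endothelial cells (4.35), Lmo7, a junction-associated LIM protein (4.05), Chst2, a second sulfotransferase of the same family as Chst1 (3.99), and Tex14, best known from germ cell bridges (3.94). The others were Bpgm, the bisphosphoglycerate mutase of red cells (3.92), the integrin chain Itgb5 (3.86), the cytochrome P450 Cyp4b1 (3.79), the glycoprotein Cd24a (3.63), the reticulon Rtn1 (3.61) and Camk2n1, an inhibitor of calcium/calmodulin-dependent kinase II (3.33). Cyp4b1 was at 566 CPM in aerocytes and 40.2 CPM in other endothelial cells, and Rtn1 at 527 CPM in aerocytes and 42.3 CPM in other endothelial cells. Over the 16 alternative settings the log2 ratios of these 10 genes lay between 2.82 and 5.24.

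General capillary genes ran the opposite way. Of 11 compared, 0 were higher and 9 were lower in aerocytes than in other endothelial cells (median −2.22), beside 5.0% and 7.04% of all genes. Plvap, which forms the diaphragms of endothelial fenestrae and caveolae, was at 71.9 CPM in aerocytes and 751 CPM in other endothelial cells (−3.37). It was above 0 in 14.0% (9.10 to 20.3) of aerocytes and 88.9% (86.0 to 91.3) of other endothelial cells. The interquartile ranges were 0 to 0 UMIs in aerocytes and 2 to 6 in other endothelial cells and did not overlap, although the highest aerocyte had 8. Gpihbp1, which carries lipoprotein lipase to the capillary surface, was at 136 CPM in aerocytes and 617 CPM in other endothelial cells (−2.17). The angiopoietin receptor Tek (−2.56), Cd93 (−2.22), the phosphatase Ptprb (−2.22), the matrix protein Hmcn1 (−1.90) and the ligand Bmp6 (−1.76) were lower as well. Lpl and Sema3c were not, with log2 ratios of −0.32 and 0.03.

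In the 121 cells of the aerocyte cluster these levels were lower still: Plvap was at 12.8 CPM, Kit at 12.8 CPM and Aplnr at 7.98 CPM. In the 43 aerocytes outside it they were 213, 106 and 163 CPM. General capillary genes were not kept out of the clustering, so this split is not independent of them. Glp1r had 0 UMIs in the 164 aerocytes, a count that limits cells with a UMI to at most 1.83% and sets no limit on cells that express the gene, and 35 UMIs in other endothelial cells. Beyond the general capillary list, the 11 others of the 15 lowest ratios among genes at 100 CPM or more in either class began with Cxcl12 (−4.00), the Wnt inhibitor Wif1 (15.7 CPM in aerocytes and 206 CPM in other endothelial cells, −3.63), the hyaluronidase Tmem2 (−3.13), the arterial connexin Gja4 (−3.05), the lymphatic chemokine Ccl21a (−3.0) and Prcp (−2.89), a peptidase that cleaves angiotensin and apelin peptides. The integrin chain Itga6 (−2.75), the mitotic regulator Cdc20 (−2.75), the imprinted RNA H19 (−2.65; its exons hold Mir675), the surface protein Tm4sf1 (−2.52) and the taurine transporter Slc6a6 (−2.48) followed.

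**Figure D3:**
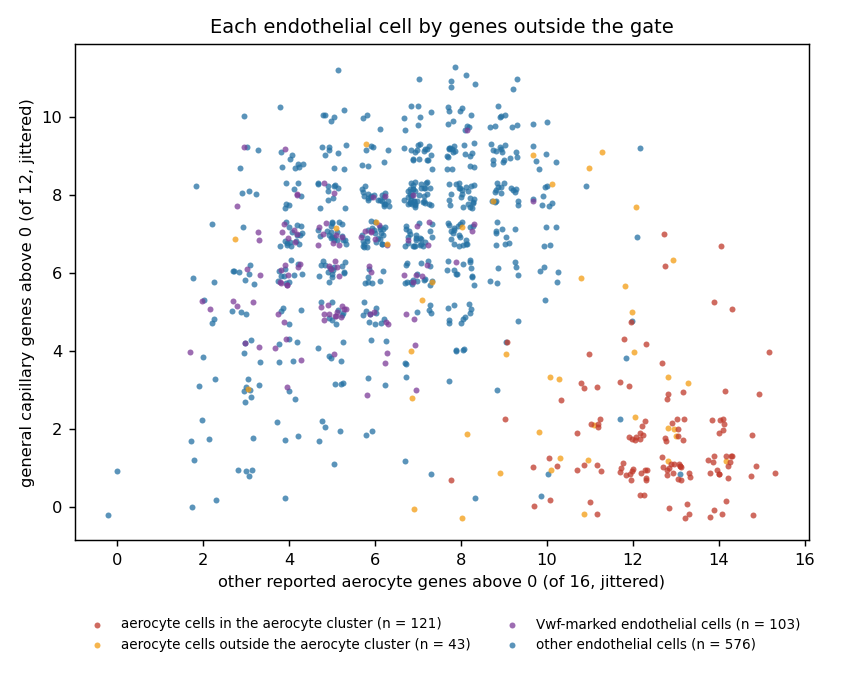
Each dot is a cell, placed with jitter by how many of 16 other reported aerocyte genes and of 12 general capillary genes had values above 0. The 121 red aerocytes of the aerocyte cluster sit at the lower right, while the 43 orange ones outside it are spread between there and the blue other endothelial cells. Medians are 12 and 2 genes over all aerocytes, 7 and 7 over other endothelial cells and 5 and 6 over the purple Vwf-marked cells.

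Counted cell by cell, aerocytes had a median of 12 of the 16 other aerocyte genes above 0 (interquartile range 11 to 13), against 7 (5 to 8) in other endothelial cells and 5 (4 to 6) in Vwf-marked cells. Of the 12 general capillary genes they had a median of 2 (1 to 3), against 7 (6 to 8) in other endothelial cells and 6 (5 to 7) in Vwf-marked cells. At least 8 of the 16 were found in 93.3% of aerocytes, 33.7% of other endothelial cells and 4.85% of Vwf-marked cells. Cells with Ptprc and no endothelial gene had a median of 1 of the 16.

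Genes outside the rule differed with the number of gate genes detected. Emp2 was at 62.7 CPM in the 424 endothelial cells with 0 gate genes, 179.5 CPM in the 152 cells with 1, just outside the rule, 3190 CPM in the 58 cells with 2, just inside, 4876 CPM in the 95 cells with 3 and 4870 CPM in the 11 cells with 4. Tbx2 was at 41.4, 113, 757, 1036 and 1034 CPM over the same steps. Kdr was level outside the rule (423 and 426 CPM with 0 and 1 gate genes) and was at 1388, 2328 and 1862 CPM with 2, 3 and 4. Plvap ran downward, at 802, 613, 163, 23.6 and 0 CPM. Aplnr was at 317, 220.0, 122, 17.7 and 0 CPM. For Emp2, Tbx2 and Kdr the largest step was thus between 1 and 2 gate genes, while the largest fold difference of Plvap between neighbouring groups with UMIs was between 2 and 3, and Aplnr was lower at each step.

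**Figure D4:**
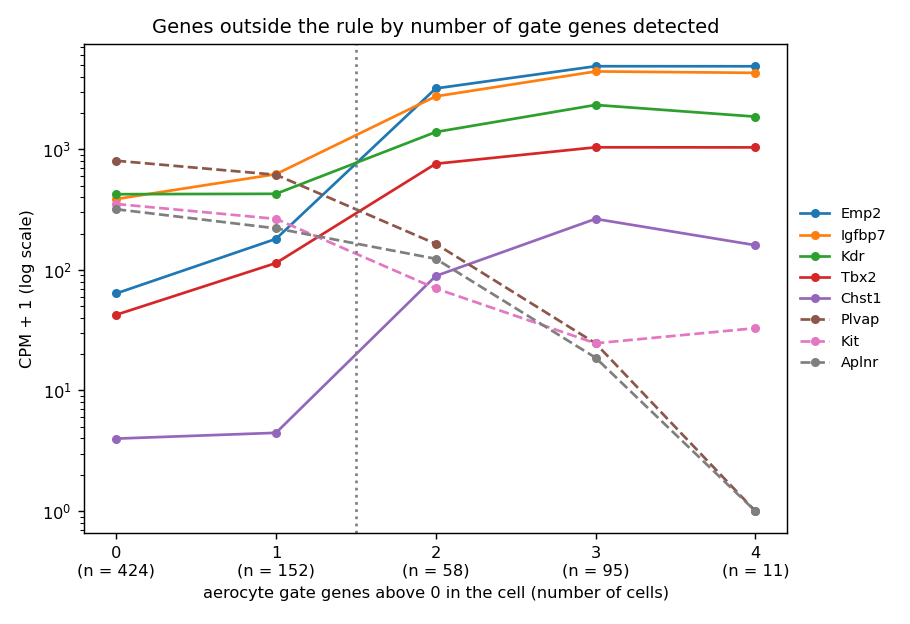
Level (CPM plus 1, log axis) of 8 genes outside the rule in endothelial cells grouped by how many of the 4 gate genes were above 0, with the number of cells under each step. The dotted line is the rule's threshold: Emp2 steps between 179.5 and 3190 CPM across it, while dashed lines for Plvap, Kit and Aplnr run downward. Groups of cells come from 1 library and have no error bars.

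Some cells carried both programmes. Of the 164 aerocytes, 24 had at least 2 of Gpihbp1, Aplnr, Kit and Lpl above 0. These 24 had a median of 3025 detected genes, 15 of them (62.5%, 40.6 to 81.2) were cycling, 4 were predicted doublets and 10 lay in the 4 doublet-rich clusters. The part of doublets in this overlap was not tested. A further 67 cells met every other condition of the rule but had Ptprc above 0, and 16.4% of these were predicted doublets. They had 1078 CPM of Car4 and 2856 CPM of Emp2. Only 1 of the 164 aerocytes had Vwf at exactly 1, and 10 cells were left out by the Vwf limit alone.

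Of 8 genes compared in the VEGF pathway, through which type 1 cells act on capillaries, 3 were higher and 3 lower in aerocytes (median −0.27, beside 5.0% and 7.04% of all genes). The higher ones were 2 receptors and a coreceptor: Kdr (VEGFR2) was at 1959 CPM in aerocytes and 424 CPM in other endothelial cells (2.21), the coreceptor Nrp1 at 1156 CPM in aerocytes and 345 CPM in other endothelial cells (1.74), and Flt1 (VEGFR1) at 714 CPM in aerocytes and 253 CPM in other endothelial cells (1.49). The interquartile range of Kdr was 6.75 to 15 UMIs per cell in aerocytes (median 10), against 1 to 3 (median 2) in other endothelial cells. Flt1 was also at 549 CPM in Vwf-marked cells, a ratio of 0.38, whereas Kdr was at 275 CPM there (2.83). The coreceptor Nrp2 was lower, at 25.8 CPM in aerocytes and 119 CPM in other endothelial cells (−2.16), as were the ligands Vegfc (−2.18) and Vegfa (34.8 CPM in aerocytes and 73.5 CPM in other endothelial cells, −1.05). Vegfb (−0.92) and Flt4 (0.37) lay between, and Pgf and Vegfd had too few UMIs. Exons of Nrp1 overlap those of Mir1903.

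Of 4 other apelin and endothelin genes compared, 0 were higher and 2 lower (median −1.20), beside 5.0% and 7.04% of all genes. The lower ones were the receptor Aplnr and the ligand Edn1. Aplnr was at 53.9 CPM in aerocytes and 291 CPM in other endothelial cells (−2.41), the reverse of its ligand gene Apln. Edn1 had 3 UMIs in aerocytes (3.37 CPM), against 135 UMIs (42 CPM) in other endothelial cells and 217 CPM in Vwf-marked cells. Its receptor gene Ednrb, used by the rule, was at 661 CPM in aerocytes and 10.6 CPM in other endothelial cells. The converting enzyme gene Ece1 was level, at 312 CPM in aerocytes and 312 CPM in other endothelial cells, and the receptor Ednra was at 18 CPM in aerocytes and 10.9 CPM in other endothelial cells (0.67). Edn2, Edn3 and Ece2 had at most 4 UMIs in each of the 2 classes.

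Arterial and lymphatic genes were mostly lower in aerocytes. Of 7 arterial genes compared, 1 was higher and 5 lower (median −1.89), beside 5.0% and 7.04% of all genes. Cxcl12, a chemokine, was at 13.5 CPM in aerocytes and 231 CPM in other endothelial cells (−4.00), of which 21.9% had a value above 0 and 1 reached 52 UMIs. The Notch target Hey1 was at 4.49 CPM in aerocytes and 65.4 CPM in other endothelial cells (−3.59). Stmn2, a microtubule regulator, was the 1 that was higher, at 637 CPM in aerocytes, 272 CPM in other endothelial cells (1.23) and 787 CPM in Vwf-marked cells. Of 7 lymphatic genes 0 were higher and 4 lower (median −2.37). The chemokine Ccl21a, which has near-identical gene copies, was at 108 CPM in aerocytes and 868 CPM in other endothelial cells, of which 23 formed a cluster led by Ccl21a, Mmrn1, Reln and Prox1, and it was at 0 in the aerocyte cluster. Against general capillary-marked cells in place of all other endothelial cells, 1 of 3 lymphatic genes was higher and 0 were lower (median 0.78), and against Vwf-marked cells 2 of 3 were higher and 1 lower (median 2.75). The highest sum of the 7 lymphatic genes in a single aerocyte was 126 UMIs, and 15 UMIs within the aerocyte cluster. The cluster led by Ccl21a held 1 aerocyte, so lymphatic levels in aerocytes can rest on very few cells. Of 4 venous genes 2 were lower, Prss23 (−2.73) and the transcription factor Nr2f2 (−1.07), and 0 were higher.

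The 461 general capillary-marked cells made up most of the 576 other endothelial cells, so totals against them were bound to lie close to those above. Against the 461 general capillary-marked cells, 419 of 7682 genes (5.45%) were higher and 535 (6.96%) lower. The other aerocyte genes were again higher in 13 of 15, with a median of 3.00. Against the 103 Vwf-marked cells, 448 of 4838 genes (9.26%) were higher and 378 (7.81%) lower, and 14 of the 15 aerocyte genes were higher. There Cd9 was the 1 that was lower, at 284 CPM in aerocytes and 731 CPM in Vwf-marked cells (−1.36). Of 10 arterial genes 8 were lower against Vwf-marked cells, among them Cxcl12, at 13.5 CPM in aerocytes and 1980.0 CPM in Vwf-marked cells (−7.10). The basement membrane collagens Col4a1 and Col4a2 were within 2-fold of other endothelial cells and higher than in Vwf-marked cells: Col4a1 was at 1984 CPM in aerocytes, 1715 CPM in other endothelial cells (0.21) and 335 CPM in Vwf-marked cells (2.56). These comparisons share the aerocyte cells. The counts of lower genes depended on who was compared: against other endothelial cells 579 genes were lower, but 1340 when the aerocyte cluster was set against the remaining clusters and 305 with a pseudocount of 10 CPM.

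Secreted growth factors of the alveolar septum were mixed, with 4 of 13 higher and 3 lower (median 0.32), beside 5.0% and 7.04% of all genes. Besides Kitl, the higher ones were Bmp4 (77.5 CPM in aerocytes and 17.7 CPM in other endothelial cells, 2.07), Pdgfd (1.30) and Tgfb1 (300 CPM in aerocytes and 141 CPM in other endothelial cells, 1.08). With the 121 cells of the aerocyte cluster set against other endothelial cells outside the 4 doublet-rich clusters, 4 were higher and 7 lower (median −1.55). The 5.0% and 7.04% are for the rule, and no share of all genes was computed for this cluster comparison. Pdgfb, the ligand that recruits pericytes, was at 301 CPM in aerocytes, 184 CPM in other endothelial cells (0.71) and 70.8 CPM in Vwf-marked cells (2.07). The 3 lower ones by the rule were Cxcl12, Angpt2 (−1.77) and Bmp6. Guidance genes had 5 of 15 higher and 2 lower (median 0.20), beside the same shares of all genes. Sema7a, a membrane-anchored semaphorin, was at 162 CPM in aerocytes and 25.5 CPM in other endothelial cells (2.62), and the netrin Ntn4 at 42.7 CPM in aerocytes and 6.85 CPM in other endothelial cells (2.48). Sema3f (1.61), Sema6a (1.48) and the plexin Plxna2 (1.34) were higher, and Sema3g (−2.68) and the arterial ephrin Efnb2 (−1.21) lower.

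Notch genes were mostly within 2-fold: of 11, 0 were higher and 3 lower (median −0.05), beside 5.0% and 7.04% of all genes. The lower ones were Hey1, the feedback inhibitor Nrarp (−1.60) and the ligand Jag1 (−1.10). The receptors Notch1 (−0.05) and Notch4 (0.25) and the ligand Dll4 (−0.09) were near level. Of 8 tip cell and angiogenic genes 1 was higher, the urokinase receptor Plaur (164 CPM in aerocytes and 52.9 CPM in other endothelial cells, 1.61), and 2 were lower, Angpt2 and Cxcr4. Cxcr4, the receptor of Cxcl12, had 1 UMI in aerocytes and 53 UMIs in other endothelial cells.

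**Figure D5:**
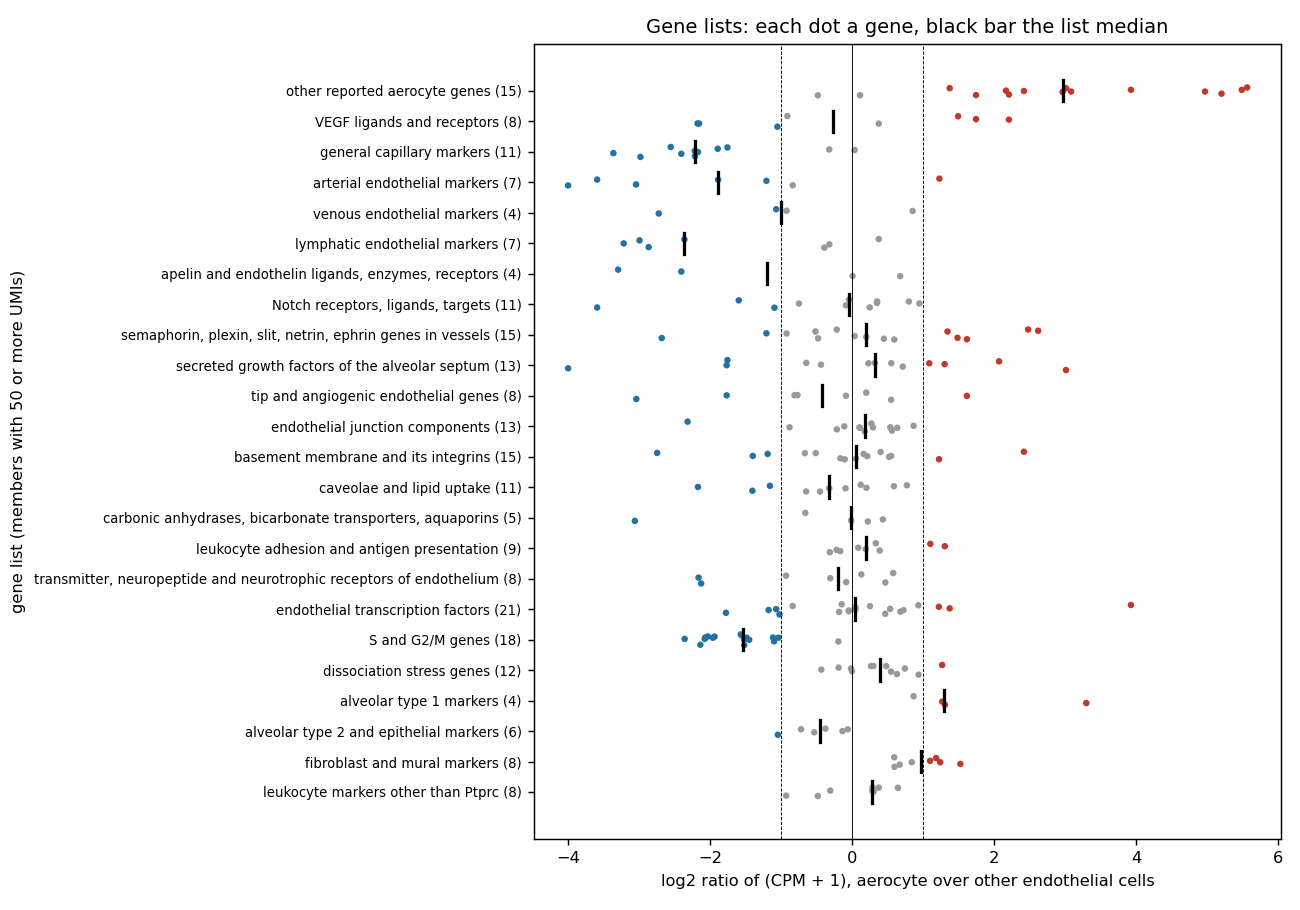
Log2 ratio of CPM plus 1, aerocyte over other endothelial cells, for the members of 24 gene lists with at least 50 UMIs. Each dot is a gene (red at least 2-fold higher, blue at least 2-fold lower, grey between), the black bar is the list median and the number of genes stands in brackets. The other reported aerocyte genes have a median of 2.96, general capillary markers −2.22 and S and G2/M genes −1.54, while most other lists centre near 0.

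Most listed genes of the barrier were close to level. The tight junction claudin Cldn5, a gate gene and so outside these lists, was higher in aerocytes (log2 ratio 1.37). Of 13 junction components 0 were higher and 1 lower (median 0.18), near the 5.0% and 7.04% of all genes. The lower one was the connexin Gja1 (5.62 CPM in aerocytes and 32.1 CPM in other endothelial cells, −2.32). The scaffold Tjp1 (−0.11), beta-catenin (Ctnnb1, −0.22) and the adhesion protein Esam (0.29) were within 2-fold. Of 15 basement membrane and integrin genes 2 were higher and 3 lower (median 0.05). The laminin-binding integrin chains Itga3 and Itga6 diverged: Itga3 was higher (2.42), and Itga6 lower, at 27.0 CPM in aerocytes and 187 CPM in other endothelial cells (−2.75). Nid1, a linker of laminin and collagen IV, was higher (1.22), and the proteoglycan Hspg2 (−1.40) and Itga1 (−1.19) were lower.

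Of the genes for gas and fluid exchange other than Car4, 0 of 5 were higher and 1 was lower (median −0.02), beside 5.0% and 7.04% of all genes. Car14, another membrane-bound carbonic anhydrase, had 2 UMIs in aerocytes and 84 UMIs in other endothelial cells. The cytosolic enzyme Car2 was at 140.5 CPM in aerocytes and 223 CPM in other endothelial cells (−0.66), and the water channel Aqp1 at 869.7 CPM in aerocytes and 645 CPM in other endothelial cells (0.43). In the 11 genes of caveolae and lipid uptake 0 were higher and 3 lower (median −0.32): Gpihbp1, the fatty acid-binding protein Fabp5 (−1.41) and Cav1, the main caveolar coat protein, at 369 CPM in aerocytes and 825 CPM in other endothelial cells (−1.16). Cav2 (0.59) and Cavin2 (0.20) were within 2-fold.

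Leukocyte adhesion and antigen presentation genes had 2 of 9 higher and 0 lower (median 0.19), beside 5.0% and 7.04% of all genes. Icam2, an adhesion ligand of leukocyte integrins, was at 1476 CPM in aerocytes and 598 CPM in other endothelial cells (1.30). Selplg was the other (1.10), from 20 UMIs in aerocytes, and its ratio was −0.01 where the aerocyte cluster replaced the rule. H2-K1 (−0.32) and H2-D1 (0.33), near-identical class I genes whose UMIs may be split between them, were within 2-fold. Genes of transmitter, neuropeptide and neurotrophin signalling, the theme of the study, had 0 of 8 higher and 2 lower (median −0.20), beside the same shares of all genes. The receptor Ntrk2 was at 4.49 CPM in aerocytes and 23.7 CPM in other endothelial cells (−2.17), and the nitric oxide synthase Nos3 at 4.49 CPM in aerocytes and 23.0 CPM in other endothelial cells (−2.13), with 4 UMIs each in aerocytes. The beta-adrenergic receptor Adrb1 was at 144 CPM in aerocytes, 96.2 CPM in other endothelial cells (0.58) and 27.0 CPM in Vwf-marked cells (2.37), and the CGRP-family receptor Calcrl at 609 CPM in aerocytes and 755 CPM in other endothelial cells (−0.31).

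Of 21 endothelial transcription factors 3 were higher and 4 lower (median 0.04), beside 5.0% and 7.04% of all genes. Besides Tbx2 and Tbx3, the higher one was Lmo2 (385 CPM in aerocytes and 165 CPM in other endothelial cells, 1.22). The lower ones were Sox7 (25.8 CPM in aerocytes and 91.2 CPM in other endothelial cells, −1.78), Foxo1 (−1.18), Nr2f2 and Fli1 (−1.03). The pan-endothelial factors Erg (0.03), Epas1 (−0.15) and Sox18 (0.53) and the lung mesoderm factor Foxf1 (0.46) were within 2-fold.

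Cell cycle transcripts were lower in aerocytes than in other endothelial cells. Of 18 S and G2/M genes 0 were higher and 17 lower (median −1.54), beside 5.0% and 7.04% of all genes. The proliferation marker Mki67 was at 38.2 CPM in aerocytes and 165 CPM in other endothelial cells (−2.08), Cdk1 at 30.3 CPM in aerocytes and 131 CPM in other endothelial cells (−2.07) and Cenpf, a kinetochore protein, at 43.8 CPM in aerocytes and 229 CPM in other endothelial cells (−2.36). At least 5 of the 18 genes were above 0 in 21 aerocytes (12.8%, 8.10 to 18.9), 218 other endothelial cells (37.8%, 33.9 to 41.9) and 9 Vwf-marked cells (8.74%, 4.07 to 15.9). In the aerocyte cluster 3 of 121 cells (2.48%, 0.514 to 7.07) met this measure, and of the 43 members outside it 18 did (41.9%, 27.0 to 57.9). The clusters were formed with cycle genes included, so this split is not independent of cycling. With Vwf-marked cells as the reference, 0 of the 8 genes compared were 2-fold higher or lower. Of 12 immediate early genes, which respond to dissociation, 1 was higher, Nr4a1 (228 CPM in aerocytes and 94.3 CPM in other endothelial cells, 1.27), and 0 were lower (median 0.39).

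Markers of other lung cells were measured in the same classes. Fibroblast and mural markers had 4 of 8 higher and 0 lower (median 0.97), beside 5.0% and 7.04% of all genes. Their summed level was 1962 CPM in aerocytes and 1007 CPM in other endothelial cells. In the aerocyte cluster the sum was 129 CPM, and 110 CPM in the 511 other endothelial cells outside the 4 doublet-rich clusters. Col1a1, a fibrillar collagen, was at 367 CPM in aerocytes and 162 CPM in other endothelial cells, but at 23.9 CPM in the aerocyte cluster. Alveolar type 1 markers had 3 of 4 higher and 0 lower (median 1.29). Ager, the defining type 1 receptor, was at 87.6 CPM in aerocytes and 34.9 CPM in other endothelial cells but was above 0 in only 11 of 164 aerocytes, 1 of which had 61 UMIs, and it was at 11.2 CPM in the aerocyte cluster. Aqp5, another type 1 marker, was at 0 in the aerocyte cluster. Hopx, a homeodomain protein also used as a type 1 marker, was at 434 CPM in aerocytes and 43.3 CPM in other endothelial cells (3.30), in 75% (67.7 to 81.4) of aerocytes, and at 528 CPM in the aerocyte cluster. Hopx was above 0 in 16.1% of other endothelial cells and 19.1% of the Ptprc-positive cells without endothelial genes. Clic5, a chloride channel family protein linked to the cortical cytoskeleton, was at 397 CPM in aerocytes and 164 CPM in other endothelial cells (1.27), and 468 CPM in the cluster.

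Alveolar type 2 markers had 0 of 6 higher and 1 lower in aerocytes (median −0.46), beside 5.0% and 7.04% of all genes. Sftpc was at 3153 CPM in aerocytes and 3296 CPM in other endothelial cells. In the aerocyte cluster Sftpc was at 775 CPM. The type 2 markers summed to 863 CPM in that cluster and to 672 CPM in the 511 other endothelial cells outside the 4 doublet-rich clusters. The median log2 ratio between these was 0.47, with 0 higher and 0 lower, and no share of all genes was computed for this comparison. The 1 lower gene, Sftpa1, had a log2 ratio of −1.05, and of 0.36 without the 4 doublet-rich clusters, a setting added after the data were seen. Leukocyte markers other than Ptprc summed to 906 CPM in aerocytes, 925 CPM in other endothelial cells and 26380.0 CPM in the Ptprc-positive cells without endothelial genes. Between the 2 endothelial classes 0 of 8 were 2-fold higher or lower, beside 5.0% and 7.04% of all genes. The part of these transcripts from other cells in the aerocyte values was not tested beyond these sums.

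The bulk library of PDGFRA+ cells gave the level of aerocyte genes in sorted mesenchymal cells. It held 171910584 estimated reads over 16906 genes, and its levels are CPM with exact Poisson 95% intervals for counting error. In PDGFRA+ cells, Pecam1 was at 6.38 CPM, Kdr at 3.47 CPM and Pdgfra at 184 CPM. Rprml (0.0465 CPM) and Cdkn2b (0.524 CPM) were near the bottom of the table. Tbx2 was at 912 CPM (908 to 917), Igfbp7 at 829 CPM, Pmp22 at 449 CPM and Emp2 at 240 CPM (237 to 242). The aerocyte levels of the single-cell library were 936, 3807, 1542 and 4272 CPM for these 4 genes, but the platforms differ and no ratio was formed. In a bulk library, fewer cells of a type and less RNA per cell cannot be told apart.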

How the data were processed

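Single cells of wild-type peripheral lung at postnatal day 3 (10x Chromium 3′ v3) and PDGFRA+ bulk cells were each measured in 1 sample. The submitters' processing notes name Cell Ranger 5.0 and Seurat 3.2.2 for the single cells. For the bulk library they name mm10, DESeq2, featureCounts, HISAT2 and Trim Galore. The single-cell build and the correction step are not named. The deposited single-cell values were treated as a score: whole-number UMI values that the authors appear to have corrected for depth, inferred from totals that span 1.79-fold. The planned unit had been raw counts, so no Poisson interval and no thinning was used for cells. The deposited bulk table holds, per the file headers, an expected count by the authors for each gene (15.9% not whole), used as CPM, and TPM by the authors, used as the alternative.

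Cells over 10% mitochondrial UMIs (646) left 10660. Of 1239 cells with at least 3 of the 6 endothelial genes, 853 had Ptprc at 0. Class sums were scaled to 1000000, log2 ratios add 1 CPM, and 2-fold is a call by size among genes with 50 or more UMIs, without the genes of the gates. Doublets were predicted with Scrublet in scanpy 1.11.5 (expected 5%), which marked 461 cells. The 853 cells were clustered with Leiden at resolution 1 on 20 principal components and 15 neighbours. Cycling means at least 5 of 18 S and G2/M genes above 0. The members and the 27 gene lists were chosen with earlier results of these data known. Named genes are the gate genes, up to 4 members of each list with the largest ratios, all apelin, endothelin and VEGF genes, and the 15 genes with the highest and the 15 with the lowest ratio that reached 100 CPM; further list members are named for their role. Promoters are from RefSeq (GRCm38.p6) and exon overlaps from GENCODE M21. On simulated Poisson draws for the 8225 genes, the planted ratios (log2 of 1, 2, −1 and −2) came back as medians of 0.90, 1.95, −0.96 and −2.07, and 0.636% of unchanged genes passed 2-fold. The depth-corrected values were not treated as Poisson counts, so that share is not a rate of false calls among the genes called here.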

Additional observations from a re-analysis of the deposited data

Results flagged for a closer look

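Signal of the 4 aerocyte gate genes was found in the PDGFRA+ bulk library, a sample outside the comparisons between endothelial classes. In PDGFRA+ cells Fibin was at 129 CPM (127 to 131) and Ednrb at 99.95 CPM (98.5 to 101), with exact Poisson 95% intervals that cover counting error only. Apln was at 4.55 CPM and Car4 at 2.64 CPM in the same library, whose Pecam1 level was 6.38 CPM. In the aerocytes of the single-cell library the values were 36.0 CPM for Fibin, 661 CPM for Ednrb, 375 CPM for Apln and 1339 CPM for Car4. There was no control sample for the bulk library.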

How the results depend on the processing

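Of 89 named genes past 2-fold, 73 stayed past it in the same direction in all 16 alternatives, 15 came under it in at least 1 and 8 turned round in at least 1, some of them counted under both. A change in the minimum of UMIs cannot move the ratio of a single gene, only which genes are counted. The rule gave 106 cells with at least 3 of 4 aerocyte genes and 96 at a mitochondrial limit of 5%. Counts of genes moved most with the minimum of UMIs. Genes higher than in other endothelial cells numbered 176 with a minimum of 200 UMIs and 1384 with none, and lower ones 199 with 200, 898 with 20 and 1549 with none. Against general capillary-marked cells, higher genes numbered 171, 676 and 1794 with minimums of 200, 20 and none, and lower ones 174 with 200 and 1473 with none. Against Vwf-marked cells, the same 3 settings gave 144, 779 and 2887 higher and 86, 741 and 2328 lower genes. With a pseudocount of 10 CPM, lower genes numbered 305 against other endothelial and 308 against general capillary-marked cells. With the aerocyte cluster in place of the rule they numbered 1340 and 1093. Lower genes numbered 877 with at least 3 of 4 aerocyte genes and 975 with no Vwf or Ptprc gate on other endothelial cells, and 350 against general capillary-marked cells without cycling cells.

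With the aerocyte cluster in place of the rule, set against the remaining clusters with the doublet-rich ones included, log2 ratios turned to −1.98 for Ager, −3.29 for Col1a1, −3.25 for Col1a2, −3.80 for Dcn, −3.63 for Postn, −0.17 for Fibin and −0.013 for Selplg, and the alveolar type 1 median to −0.27. Where the same cluster was set against other endothelial cells outside the doublet-rich clusters, the Fibin ratio was 1.52. There 0 of 8 fibroblast and mural markers were higher and 0 lower (median 0.26), and the type 1 median was 0.15. No share of all genes was computed for that comparison. With at least 3 of 4 aerocyte genes, log2 ratios were −0.0048 for Col1a1, −0.017 for Col1a2 and −0.16 for Dcn. Selplg was −0.94 with no Vwf or Ptprc gate, and Sftpa1 0.36 without the doublet-rich clusters (chosen after seeing the data). The cause was not tested. As deposited TPM, the bulk levels were 52.5 for Ednrb, 126 for Fibin, 4.18 for Car4 and 2.88 for Apln. No paired analysis was possible because each group had 1 sample. Depth correction of the deposited values limits statements about genes with few UMIs.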
